A study of Mus musculus with 12 samples.

Results

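The HoxA genes described here are Hoxa2, Hoxa4, Hoxa5, Hoxa7, Hoxa9, Hoxa10 and Hoxa11, every probe set that the array annotation gives to 1 of these 7 symbols, taken in the order of the genes along the cluster. They came to 9 probe sets, of 22626 tested for 12393 genes. Hoxa4 and Hoxa9 had 2 probe sets each and the other genes 1.

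The cells were primitive Sca-1+ Lin- bone marrow cells of (C57Bl/6Ly-Pep3b x C3H/HeJ) F1 mice older than 12 weeks, which had been given fluorouracil (150 mg/kg) 4 days before harvest. After 48 hours of prestimulation with interleukin-6, interleukin-3 and stem cell factor they were kept for 2 days with irradiated GP+E86 virus producer cells, and were sorted as GFP+ cells 24 hours later. A murine stem cell virus vector with an IRES-GFP cassette carried ND13, NA10, ND13(N51S) or no fusion (GFP control). ND13 is NUP98-HOXD13, a fusion found in acute myeloid leukemia, and NA10 is NUP98-HOXA10, an engineered fusion. ND13(N51S) is a homeodomain mutant of ND13 that the study presumes not to bind DNA. Each group had 3 arrays, numbered 1 to 3, from independent experiments. All 4 groups therefore share the drug, the cytokines, the virus and the producer cells. Expression came from the viral promoter and not from the promoter of any Hox gene, each array pooled many transduced cells, and a fusion was present for a few days at most.

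Hox genes encode homeodomain transcription factors and lie in clusters in which gene order follows the order of expression along the body axis. In blood formation the middle and posterior HoxA genes are expressed in stem and progenitor cells and are shut off as cells mature, while the anterior and most posterior genes are mostly silent. Hoxa9 and Hoxa10 keep progenitors dividing, bind DNA together with TALE cofactors of the Pbx and Meis families, and are high in leukemias with MLL or NUP98 fusions. Trithorax (MLL) complexes hold the cluster open and Polycomb complexes hold it closed.

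The windows from 250 bases before to 50 bases after the start of Hoxa5, Hoxa7 and Hoxa9 are shown, because these are the 3 genes whose lead probe sets had the smallest p for both active fusions against both controls. They are RefSeq sequence of build GRCm38.p6, minus strand, at chr6:52204538-52204837, chr6:52218524-52218823 and chr6:52227321-52227620, and capitals mark TAAT on either strand (read as ATTA where it lies on the other strand), the core of many homeodomain sites.
Hoxa5 window: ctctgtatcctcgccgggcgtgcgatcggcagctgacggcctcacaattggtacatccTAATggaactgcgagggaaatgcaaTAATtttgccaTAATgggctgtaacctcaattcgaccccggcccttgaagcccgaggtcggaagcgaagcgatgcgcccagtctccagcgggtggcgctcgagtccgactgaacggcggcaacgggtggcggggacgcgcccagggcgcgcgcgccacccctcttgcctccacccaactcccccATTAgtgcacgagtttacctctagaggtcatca
Hoxa7 window: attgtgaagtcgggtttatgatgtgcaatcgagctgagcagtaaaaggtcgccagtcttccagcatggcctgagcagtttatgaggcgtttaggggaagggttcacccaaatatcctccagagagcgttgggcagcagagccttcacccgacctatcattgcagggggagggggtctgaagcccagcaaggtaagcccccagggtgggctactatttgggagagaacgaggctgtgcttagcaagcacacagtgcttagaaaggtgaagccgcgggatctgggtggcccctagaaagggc
Hoxa9 window: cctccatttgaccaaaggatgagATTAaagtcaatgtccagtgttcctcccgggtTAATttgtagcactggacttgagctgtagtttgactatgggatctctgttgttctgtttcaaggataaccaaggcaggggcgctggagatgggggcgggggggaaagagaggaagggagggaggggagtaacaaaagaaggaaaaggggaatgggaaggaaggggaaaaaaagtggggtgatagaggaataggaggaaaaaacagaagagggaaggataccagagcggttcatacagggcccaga
The Hoxa5 window held 4 TAAT matches, the Hoxa9 window 2 and the Hoxa7 window 0. Of the windows not shown, that of Hoxa2 held 4, those of Hoxa10 1 and 3, and that of Hoxa11 1. At least 1 match was in 58.0% of all 32851 such windows. Of the longer motifs searched on both strands, TGATTTA was in none of the 7 windows found for the 6 genes other than Hoxa4, and TGACAG, a core that Meis proteins bind, was in the Hoxa2 window (share of all windows 2.97% and 19.2%). No motif overlapped another in the 3 windows shown. A match is a string of letters and not a measured site, and no binding was measured in these samples.

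Every array had been scaled to a trimmed mean of 500.16 to 500.19, with a median signal of 128 to 159. Background was 28.5 to 69.8, taken from 27 control probe sets for bacterial transcripts as their 95th percentile. All 7 measured markers of primitive cells were above background in all 12 arrays, among them Kit, Cd34 and Flt3. So were 5 of 6 granulocyte, 4 of 5 macrophage, 4 of 5 megakaryocyte, 3 of 9 fibroblast, 2 of 4 erythroid and 1 of 4 B cell markers. Of 5 T cell markers 0 were above it in all arrays, and Cd3d and Cd4 were above it in none. The summed signal of 5 macrophage markers was 4795 to 7010 with ND13, 3617 to 4181 with NA10, 4512 to 9223 with the mutant and 2130 to 4113 in the GFP control, and that of 5 megakaryocyte markers was, in the same order, 5405 to 6902, 6527 to 7036, 5391 to 8795 and 2845 to 4822. The 9 measured markers of fibroblasts, the type of the producer cells, summed to 544 to 849 outside the mutant and 803 to 1135 with it. Sums of 6 granulocyte, 4 B cell, 5 T cell and 4 erythroid markers ran over all arrays from 1895 to 5746, 220 to 371, 84.3 to 239 and 175 to 491, the erythroid sum being highest with the mutant (461 to 491). The macrophage and megakaryocyte sums were high with the mutant too, where Hoxa5 and Hoxa7 were low, and their part in the values below was not tested. In bulk RNA, fewer cells of a type and less RNA per cell cannot be told apart. Of the arrays, ND13(N51S) replicate 2 had a Gapdh 3'-to-5' ratio of 48.9, against 1.90 to 2.71 in the other 11. The record deposited for GFP control replicate 1 speaks of sorted GFP-negative cells from the culture with the mutant. Several values for Hoxa5, Hoxa7 and Hoxa9 that move with either array are therefore given without it as well.

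The 3 genes Hoxa5, Hoxa7 and Hoxa9 lie next to each other among the genes measured in the middle of the cluster. Hoxa5, a factor of axial patterning that is also expressed in myeloid progenitors, had signals of 117, 212 and 254 in GFP control replicates 1 to 3. Signals with ND13 were 493, 393 and 362, and with NA10 691, 582 and 612. All 6 arrays of the active fusions lay above all 6 controls, since the mutant had 325, 176 and 57.4. The mutant replicates spread far, with the highest close to the lowest ND13 array and the lowest just above background. Group means were 628 ± 56.2 for NA10, 416 ± 68.0 for ND13, 194 ± 70.3 for the GFP control and 186 ± 134 for the mutant (SD, n = 3 each).

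Hoxa7, a factor that can immortalize myeloid progenitors, had signals of 78.2, 157 and 39.6 in the GFP control, the last just below background. With ND13 the signals were 292, 382 and 178, and with NA10 205, 267 and 179. In the mutant they were 61.9, 10.2 and 40.9, of which only the first was above background. As for Hoxa5, the active fusions did not overlap with the controls, and the lowest of their 6 arrays, at 178, was close to the highest control at 157. The means were 284 ± 102 for ND13, 217 ± 45.3 for NA10, 91.6 ± 59.8 for the GFP control and 37.7 ± 26.0 for the mutant, and the array with the raised Gapdh ratio was the lowest of the 12.

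Hoxa9, the HoxA gene most closely tied to self-renewal of progenitors and to leukemia, was measured by 2 probe sets. By the brighter, 1455626_at, the signals were 3800, 3653 and 3928 in the GFP control. They were 4965, 4920 and 5563 with ND13 and 6184, 6350 and 7127 with NA10. In the mutant they were 3534, 4960 and 3785. The 3 groups of the GFP control, ND13 and NA10 were fully separated in this order, and 5 of the 6 arrays of the active fusions lay above all controls, the exception being an ND13 array (4920) just below ND13(N51S) replicate 2. By the other probe set, 1421579_at, the range over all arrays was 357 to 715 and the means were 614 ± 51.1 for ND13, 613 ± 89.6 for NA10, 511 ± 134 for the mutant and 508 ± 57.5 for the GFP control (n = 3 each). Signals of different probe sets are not on a common scale, so the probe sets can be compared in their differences only.

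**Figure D1:**
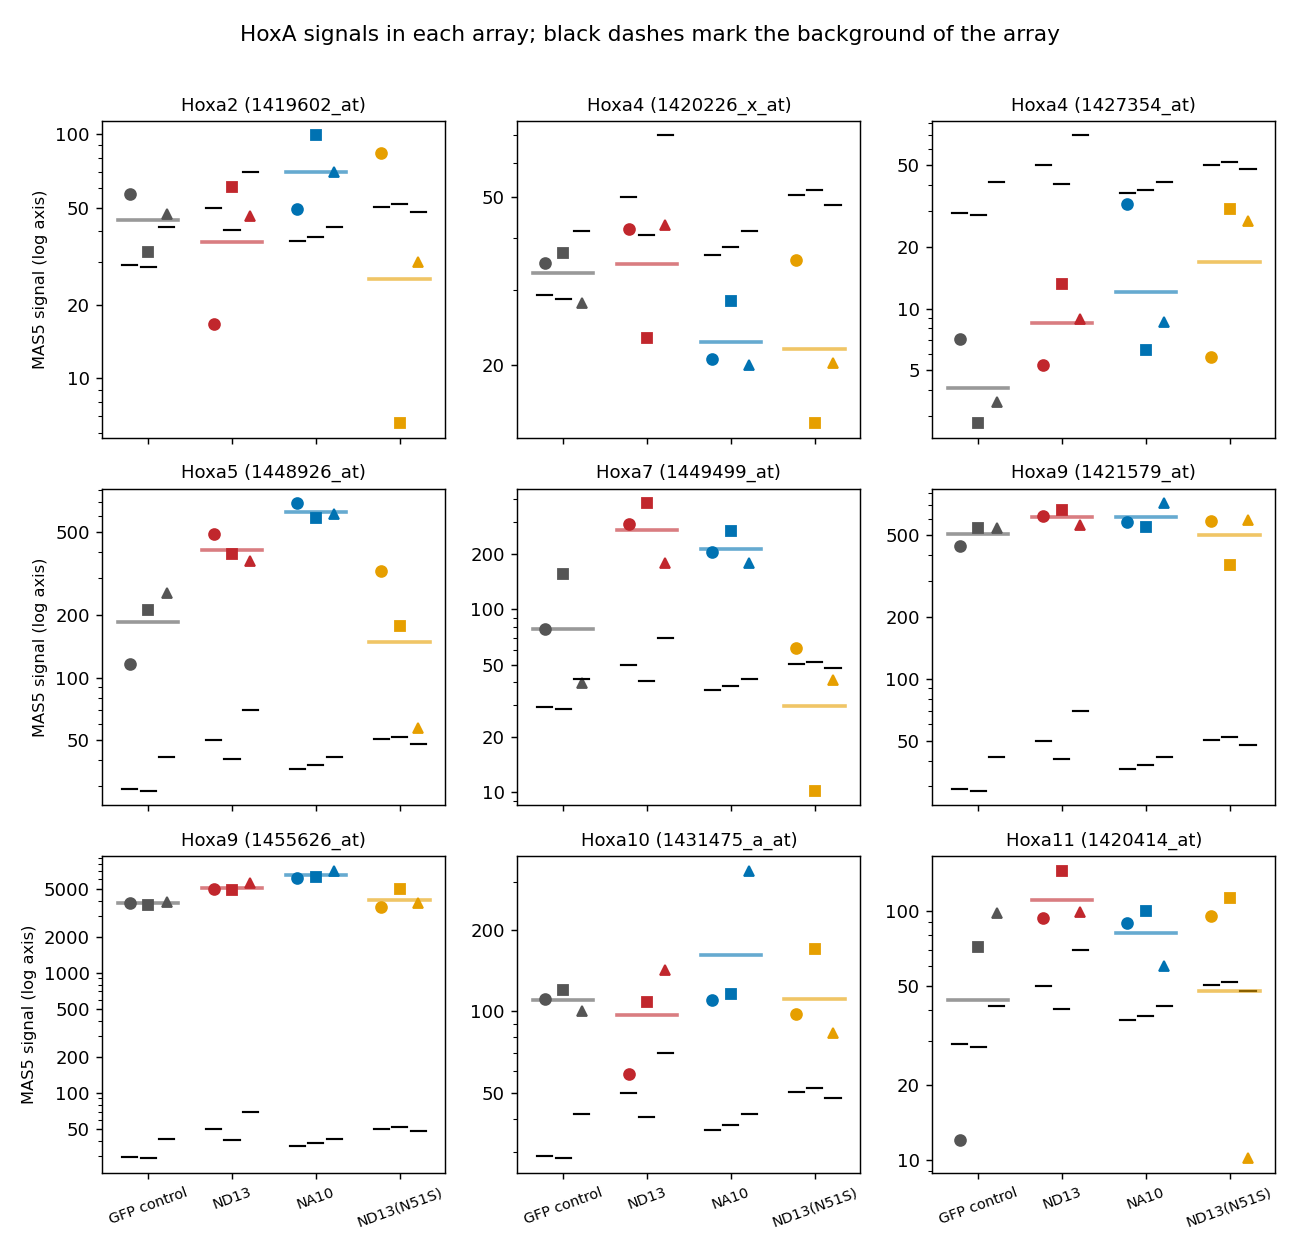
MAS5 signal (log axis, a scale of its own in each panel) of the 9 HoxA probe sets in each array; the 3 marker shapes stand for replicate 1 (circle), 2 (square) and 3 (triangle), a coloured line marks each group's geometric mean and black dashes the background of each array. Hoxa5 and Hoxa7 have all ND13 and NA10 arrays above all other arrays (lowest 362 against highest 325, and 178 against 157), and both Hoxa4 probe sets lie near or below the dashes.

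The genes towards both ends of the cluster were dim. Hoxa2, an anterior patterning gene, ranged from 6.55 to 98.8 and was above background in 8 of 12 arrays. Hoxa4, the neighbour of Hoxa5, ranged from 14.5 to 42.8 by 1420226_x_at, above background in 2 arrays, both of the GFP control, and from 2.76 to 32.3 by 1427354_at, above it in 0. Hoxa11, a posterior gene of limb and urogenital development, ranged from 10.1 to 146 and was above background in 10 arrays. Differences between groups for Hoxa4 are differences between values that are nearly all below background and have no usable size.

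Hoxa10, whose homeodomain is part of NA10, was above background in all 12 arrays and ranged from 58.6 to 332. Its signals were 111, 119 and 100 in the GFP control, 58.6, 108 and 142 with ND13, and 97.4, 170 and 83.2 with the mutant. With NA10 they were 110, 115 and 332. The third NA10 array stood at 3.31 times the GFP control array of the same number, whereas the first and second stood at 0.990 and 0.967. The groups overlapped. Whether the probes of this probe set can read the NA10 transgene was not tested.

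With ND13, the leukemia fusion, the middle genes were higher than in the GFP control by value. Hoxa5 differed by 1.16 ± 0.49 on the log2 scale (SE), 2.24-fold with a 95% interval of the log2 change from 0.11 to 2.21, and Hoxa7 by 1.79 ± 0.62, or 3.45-fold (0.44 to 3.13). Hoxa9 differed by 0.44 ± 0.15, 1.36-fold, by the brighter probe set and by 0.28 ± 0.23 by the other. A probe set was called at limma's Benjamini-Hochberg adjusted p under 0.05 and at least 1.5-fold. Of the 9 HoxA probe sets 0 were called higher, against 0.084% of all tested, and 0 lower (0.00442%), with adjusted p = 0.795 for Hoxa5, 0.671 for Hoxa7 and 0.659 for Hoxa9. At the thresholds of the study's methods, an unadjusted p under 0.05 and the same fold, 2 of 9 were higher, Hoxa5 and Hoxa7, against 3.43% of all tested, and 0 were lower (1.5%). That count was 1 without GFP control replicate 1 or 3 or ND13 replicate 1, and 0 without ND13 replicate 2. In 4 of 9 probe sets, those of Hoxa5, Hoxa7 and Hoxa9, all ND13 arrays lay above all GFP control arrays, against 6.84%.

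With NA10, which expands stem cells in culture, the same genes were higher by value. The difference from the GFP control was 1.76 ± 0.49 for Hoxa5 (3.40-fold, log2 interval 0.72 to 2.81), 1.45 ± 0.62 for Hoxa7 (2.73-fold, 0.10 to 2.79) and 0.79 ± 0.15 for Hoxa9 (1.73-fold, 0.46 to 1.11). The second Hoxa9 probe set gave 0.27 ± 0.23. Again 0 of 9 were called higher, against 0.0133% of all tested, and 0 lower (0.0%), with limma's adjusted p = 0.713, 1.0 and 0.233 for the 3 genes. Hoxa9 had the 15th smallest p of this comparison, and weighting each array by its quality in limma brought its adjusted p to 0.0421, while 21 other settings left it between 0.0612 and 0.998. By the unadjusted thresholds 3 of 9 were higher, against 2.51% of all tested, and 0 lower (1.52%). In 4 of 9, the probe sets of the same 3 genes, all NA10 arrays lay above all GFP control arrays, against 5.6%.

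With the mutant ND13(N51S) the 3 middle genes were close to the GFP control or lower by value. Hoxa5 differed from the GFP control by -0.31 ± 0.49 (interval -1.36 to 0.74), and this turned to 0.37 without the mutant's replicate 3, its lowest array. The Hoxa5 difference was -0.64 without GFP control replicate 1, and -0.76 without that array and ND13(N51S) replicate 2. The difference for Hoxa9 was 0.09 ± 0.15 by the brighter probe set, and it turned to -0.02 after median centring and to -0.05 without ND13(N51S) replicate 2. Hoxa7 was lower by value, with a difference of -1.41 ± 0.62 (interval -2.76 to -0.07, limma's adjusted p = 0.640), and of -0.64 without ND13(N51S) replicate 2. Since 2 of 3 mutant arrays and 1 of 3 GFP control arrays were below background for Hoxa7, the size of this difference is not usable. Of the 9 probe sets 0 were called in either direction, as were 0.0% of all tested probe sets, while 4.37% of all tested were higher and 2.48% lower by the unadjusted thresholds. Those thresholds gave 1 of 9 higher, the Hoxa4 probe set that was below background throughout, and 1 lower, Hoxa7, and the sum of 2 became 0 without ND13(N51S) replicate 2 or GFP control replicate 2. Centring each array on its median moved the median of all probe sets in this comparison from 0.07 to -0.04.

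**Figure D2:**
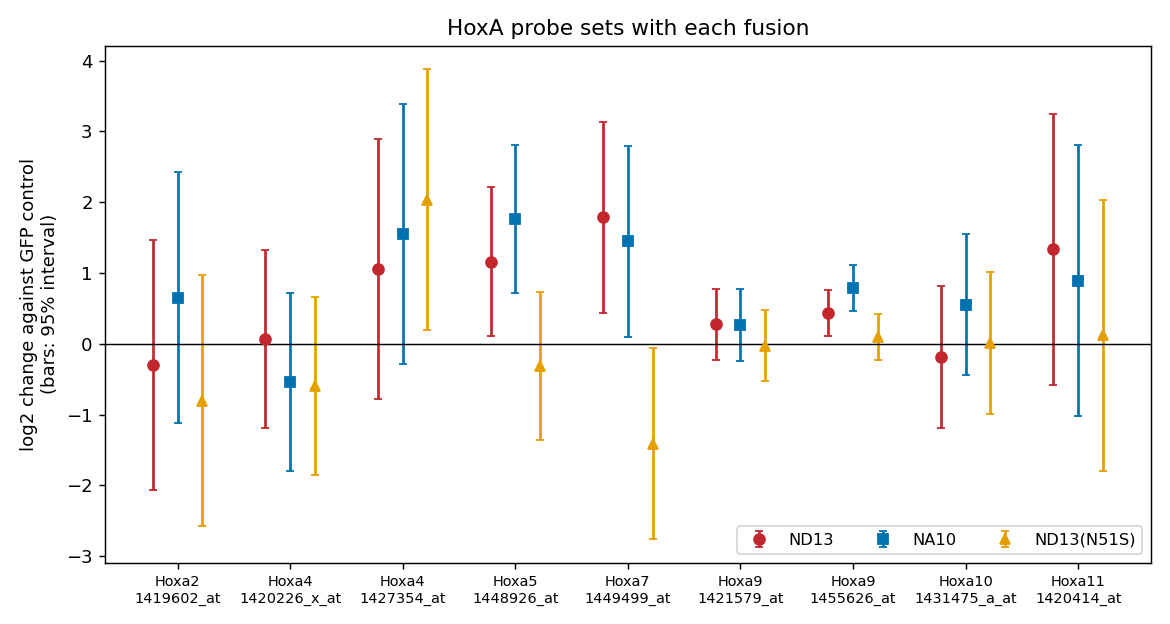
Log2 change against the GFP control (limma, 3 arrays in each group) of each HoxA probe set with ND13 (circles), NA10 (squares) and ND13(N51S) (triangles), with 95% intervals not adjusted for the number of probe sets. For Hoxa5, Hoxa7 and the Hoxa9 probe set 1455626_at the intervals of ND13 and NA10 lie above 0; the values of Hoxa4 rest on signals near or below background.

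ND13 was set directly against its mutant, which asks whether the values go with an intact homeodomain. The differences were 1.47 ± 0.49 for Hoxa5 (2.78-fold), 3.20 ± 0.62 for Hoxa7 and 0.34 ± 0.15 for Hoxa9 (1.27-fold). With NA10 against the same mutant they were 2.08 ± 0.49 (4.22-fold), 2.86 ± 0.62 and 0.69 ± 0.15 (1.62-fold). NA10 also differs from this mutant in its Hox partner, so the NA10 differences do not isolate the homeodomain change. The Hoxa7 values rest on a mutant mean below background in 2 of 3 arrays and are uncertain in size. For ND13, 0 of 9 were called (of all tested, 0.0133% higher and 0.0% lower), and by the unadjusted thresholds 2 of 9, Hoxa5 and Hoxa7, were higher and 0 lower (3.2% and 3.78% of all tested). For NA10, 0 of 9 were called (0.00442% of all tested in each direction), and 3 of 9, these and Hoxa9, were higher by the unadjusted thresholds and 0 lower (2.94% and 4.85%). The adjusted p of Hoxa7 was 0.174 for ND13 and 0.286 for NA10 (limma). All ND13 arrays lay above all mutant arrays in 2 of 9 probe sets, against 4.28% of all tested, and all NA10 arrays in 3 of 9, against 4.3%. Without ND13(N51S) replicate 2 the Hoxa7 difference was 2.43 for ND13 and 2.09 for NA10, and that of Hoxa9 was 0.49 and 0.84. Without ND13(N51S) replicate 3 the Hoxa5 difference was 0.79 for ND13 and 1.39 for NA10.

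The 2 active fusions were then compared with each other. Hoxa5 and the Hoxa9 probe set 1455626_at were lower with ND13 than with NA10 in all 3 arrays against all 3. This held for 2 of 9 probe sets and 4.0% of all tested. The differences were -0.60 ± 0.49 for Hoxa5 (interval -1.65 to 0.45) and -0.35 ± 0.15 for this Hoxa9 probe set (interval -0.67 to -0.02). By the other Hoxa9 probe set, 1421579_at, the difference was 0.01 ± 0.23 and the arrays overlapped. For Hoxa7 the difference was 0.34 ± 0.62, with an interval from -1.01 to 1.69. Of the 9 probe sets 0 were called (0.0177% of all tested were called higher and 0.0% lower) and 0 passed the unadjusted thresholds (1.98% and 1.34%), with limma's adjusted p = 1.0 for all 3 genes. These intervals include differences of more than 1.5-fold, so like levels were not shown.

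The 6 arrays of ND13 and NA10 against the 6 of the GFP control and the mutant gave the narrowest errors. Hoxa5 was 3.07-fold higher by value (log2 1.62 ± 0.34, interval 0.88 to 2.36), Hoxa7 5.00-fold (2.32 ± 0.44, 1.37 to 3.27) and Hoxa9 1.48-fold (0.57 ± 0.11, 0.33 to 0.80). The size of the Hoxa7 value is uncertain for the reason given above. The second Hoxa9 probe set gave 0.28 ± 0.17. Of the other genes, Hoxa11 had 1.05 ± 0.63, Hoxa2 0.58 ± 0.58 and Hoxa10 0.17 ± 0.33. Among all probe sets, Hoxa9 had the 19th, Hoxa7 the 21st and Hoxa5 the 55th smallest p, with limma's adjusted p = 0.128, 0.128 and 0.158. None of the 9 was called, with 0.0354% of all tested called higher and 0.0% lower. Hoxa5 and Hoxa7 passed the unadjusted thresholds, which makes 2 of 9 against 2.48% of all tested, and 0 were lower (2.87%). Hoxa9, at 1.48-fold, was under the 1.5-fold limit, so it could not pass either rule in this fit whatever its p. All 6 active arrays lay above all 6 controls in 2 of 9, against 0.371%.

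The adjusted p of these 3 genes moved with the setting, on either side of the threshold. The methods' t-test gave 0.635 for Hoxa5 and Hoxa7 and 0.527 for Hoxa9, and plain eBayes 0.339, 0.266 and 0.353. Hoxa9 reached 0.0231 without ND13(N51S) replicate 2, with a difference of 0.64, and Hoxa5 reached 0.0466 without ND13(N51S) replicate 1, with a difference of 1.90. Without both arrays in doubt, GFP control replicate 1 and ND13(N51S) replicate 2, the differences were 1.52 for Hoxa5, 1.94 for Hoxa7 and 0.64 for Hoxa9, with limma's adjusted p = 0.273, 0.133 and 0.0570. A fit with the replicate number as a block compares arrays of the same number. With it limma's adjusted p was 0.05003 for Hoxa9, 0.0669 for Hoxa7 and 0.0928 for Hoxa5, and 0 of 9 were called. The median difference of the 9 probe sets was 0.57, against -0.03 over all tested, and 9 of 9 were higher by value, against 46.0% of all tested. These counts include both Hoxa4 probe sets, whose small differences turned in some settings. The corresponding medians against the GFP control were 0.44 with ND13, 0.79 with NA10 and -0.02 with the mutant, against 0.00, -0.01 and 0.07 over all tested, and these 3 comparisons share the GFP control arrays.

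Within replicate numbers the ratio to the GFP control array of the same number showed how even the differences were. For Hoxa9 they were 1.31, 1.35 and 1.42 with ND13 and 1.63, 1.74 and 1.81 with NA10. For Hoxa5 they were 4.22, 1.86 and 1.43 with ND13 and 5.92, 2.75 and 2.41 with NA10. The high ratios of the first pair go with the lowest Hoxa5 signal of the GFP control, in replicate 1, the array whose record names another cell fraction, and without that array the difference was 0.83 with ND13 and 1.43 with NA10. For Hoxa7 the ratios were 3.74, 2.43 and 4.50 with ND13 and 2.63, 1.70 and 4.53 with NA10. The mutant had 1 of 3 ratios above 1 for each of these genes.

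**Figure D3:**
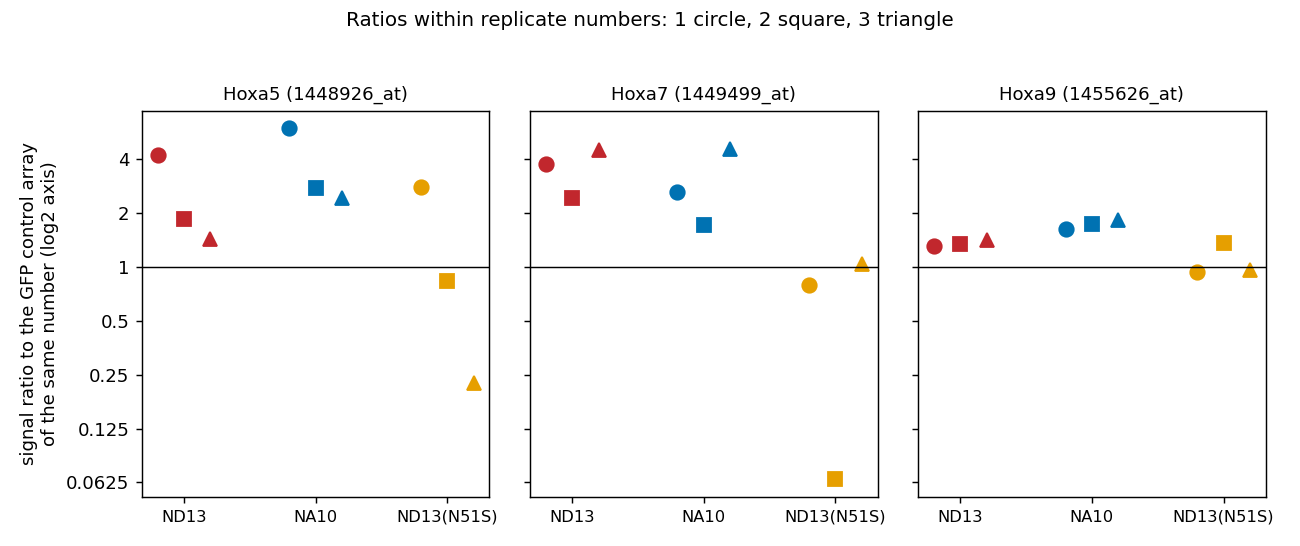
Signal of each fusion array divided by the GFP control array of the same replicate number (log2 axis, line at 1) for Hoxa5, Hoxa7 and the Hoxa9 probe set 1455626_at; circles, squares and triangles are numbers 1, 2 and 3. All ND13 and NA10 ratios lie above 1, from 1.31 to 5.92, and the mutant has 1 ratio above 1 in each panel.

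The probe sets were not alike in how they varied over the arrays. Over the 12 arrays the log2 signals of Hoxa5 and Hoxa9 had a Pearson r of 0.72, those of Hoxa5 and Hoxa7 0.65 and those of Hoxa7 and Hoxa9 0.44, whereas both Hoxa9 probe sets had 0.28 with each other. The highest r between lead probe sets was 0.75, for Hoxa5 and Hoxa11, where Spearman's rho was 0.24. Among 10370 probe sets above the median signal, the most similar to Hoxa5 were those of Adgrl4, an adhesion receptor of endothelial cells (0.92), Laptm4b, a lysosomal membrane protein (0.90), and Rab4a, a GTPase of endosomes (0.90). Nearest to Hoxa7 were Anks3 (0.94), Pura, a nucleic acid binding protein (0.92), and Mmgt2 (0.92). Nearest to Hoxa9 were Ddx4, an RNA helicase of germ cells (0.93), Ppp3ca, the catalytic subunit of calcineurin (0.93), and St8sia4, a polysialyltransferase (0.91). These correlations describe arrays that share groups and replicate numbers, and the highest values of so many probe sets are high by selection. The study had listed Rab4a, Ddx4 and St8sia4, like Hoxa5, Hoxa7 and Hoxa9, as raised by ND13 and NA10 in these same samples.

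Along the chromosome Hoxa5 and Hoxa7 had larger differences by value than any measured flanking gene for both active fusions against both controls. For NA10 against the GFP control Nfe2l3, a flanking gene above background in 8 of 12 arrays that is named here after its values were seen, differed by -1.50 ± 0.64, about the size of the Hoxa7 difference of 1.45 and within their errors. Of the other genes of the cluster, Hoxa3 and Hoxa13 were above background in 9 and 8 arrays and Evx1, next to Hoxa13, in 2, with differences for both active fusions against both controls of 0.00 ± 0.40, 0.23 ± 0.55 and -1.03 ± 0.70. Of 7 measured flanking genes 0 were called in any comparison, with a median difference of 0.03. Skap2, an adaptor of immune receptors that borders the cluster on the side of Hoxa2 and is named here after its values were seen, averaged 6362 ± 315 with ND13, 6204 ± 478 with NA10, 5438 ± 968 with the mutant and 4377 ± 315 in the GFP control (n = 3 each), a difference of 0.37 ± 0.11 (limma's adjusted p = 0.365).

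**Figure D4:**
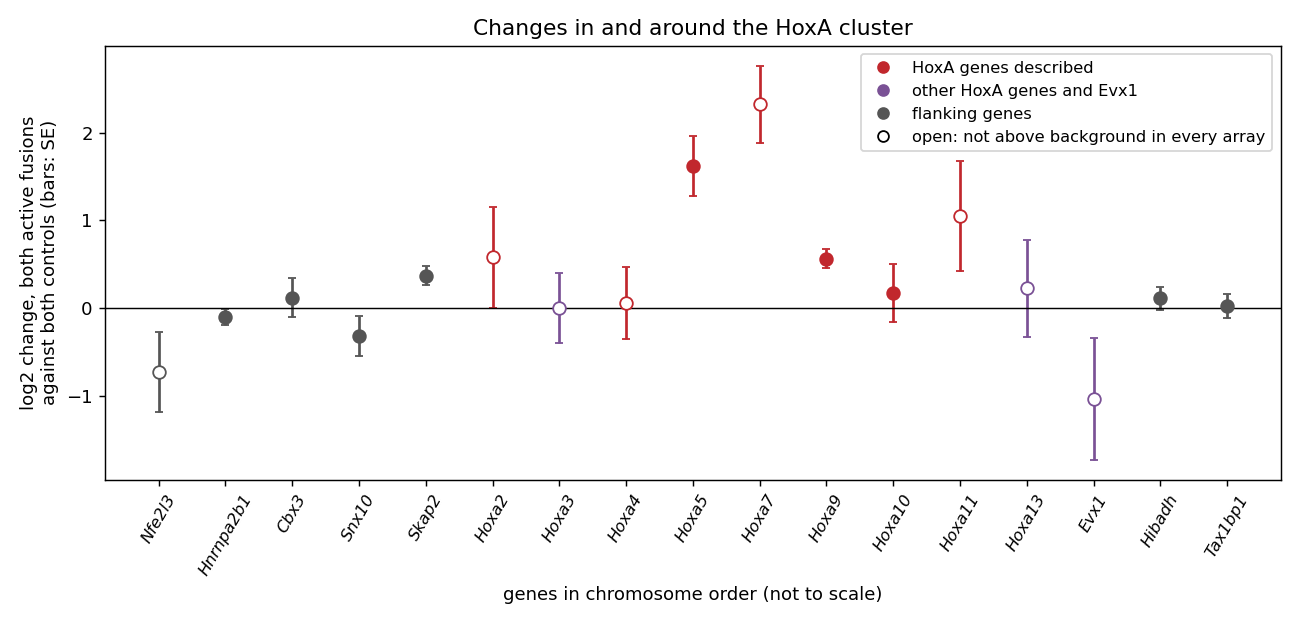
Log2 change of both active fusions against both controls (limma, 6 arrays each, bars are SE) for the measured genes of the HoxA cluster and its flanks in chromosome order, 1 probe set per gene; open points were not above background in every array. Hoxa7 (2.32) and Hoxa5 (1.62) stand highest, and the flanking genes lie between -0.73 and 0.37.

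Of the partners and regulators of HoxA, 1 gene passed the test. Pbx3, a TALE cofactor that binds DNA with Hoxa9, rose with the active fusions by 1.16 ± 0.16 against both controls (limma's adjusted p = 0.0206). Its mean was 460 ± 93.5 with ND13 and 500 ± 110 with NA10, against 220 ± 3.75 in the GFP control and 203 ± 13.7 with the mutant (n = 3 each). It was the only gene called of 10 measured TALE cofactors (median -0.13), while 0 of 18 upstream regulators (MLL complex, Cdx factors and nuclear export, median -0.06) and 0 of 17 Polycomb genes (median 0.07) were called in this comparison, against a median of -0.03 over all tested. In each of the other 6 comparisons 0 genes of any of these lists were called.

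Among upstream regulators Mllt3 averaged 125 ± 30.7, 187 ± 16.5, 256 ± 15.9 and 127 ± 54.8 in the GFP control, ND13, NA10 and mutant arrays (n = 3 each). Its difference for both active fusions against both controls was 0.85 ± 0.22 (limma's adjusted p = 0.276). Cdx2, an activator of Hox genes, was above background in 1 array of 12 and has no usable fold change. Of 20 genes listed as downstream of HoxA9 or HoxA10, Pbx3 again was the only 1 called. The median difference was 0.12, with 12 of the 20 higher by value. The list includes Pbx3, Flt3, Hlf, Mef2c, Prnp and Jag2, which the study had picked from these same samples as raised by ND13 and NA10. It is therefore not an independent set of HoxA targets, and its median and the values below are descriptions only. Flt3, a cytokine receptor of early progenitors, averaged 650 ± 327, 1511 ± 257, 1492 ± 377 and 672 ± 260 in the same order, a difference of 1.26 ± 0.26 (adjusted p = 0.138). Hlf, a factor of stem cells, averaged 548 ± 157, 953 ± 365, 2163 ± 262 and 984 ± 585, a difference of 1.02 ± 0.27 (adjusted p = 0.306). The Hlf mean with ND13 was below that of the mutant, and the Flt3 means with ND13 and NA10 differed by less than their SD. Other genes of the list were lower by value. Among them Sox4, named here after its values were seen, differed by -0.69 ± 0.15 (limma's adjusted p = 0.176).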

How the data were processed

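RNA of sorted bone marrow cells had been amplified and hybridised to 12 MOE430A arrays, 3 for each of 4 groups. The authors deposited MAS5 signal intensities on a linear scale for 22690 probe sets, background-subtracted and scaled per array to a common trimmed mean. The GC-RMA values of the study and the scanner files were not used here, and a genome build was not given in the sources used here. Log2 values of signals near background vary widely, and the number of arrays limits the precision.

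Samples were grouped by their titles. Log2 of the signals was taken without further scaling (floor 0.01, reached by 0 values). After 64 control probe sets were left out, 22626 were tested with limma 3.58.1 in R 4.3.3 (lmFit, eBayes with trend and robust, checked on simulated data) in 1 fit of all 12 arrays, and p-values were adjusted over all 22626 by Benjamini-Hochberg within each comparison. The background of an array was the 95th percentile of 27 poly-A control probe sets; hybridisation spikes, planned for as well, were left out because they are added at set concentrations. Probe sets were named through the platform annotation, with symbols updated by gene number, and in lists the brightest probe set stands for its gene. From the lists (other HoxA, flanking, TALE, upstream, Polycomb and downstream genes), genes called in any comparison were named, and at most 4 others with the largest change of both active fusions against both controls at an unadjusted p under 0.05. The members, lists and tests were chosen with earlier results of these data known. Hoxa5, Hoxa7 and Hoxa9 were among the genes that the study had reported as raised by ND13 and NA10 in these samples. The values given here for them are therefore not independent of that report. Figures came from matplotlib 3.10.9 (Python 3.11.15).

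The replicate numbers were checked for pairing over 11313 probe sets. Deviations from the group mean correlated at 0.107 to 0.589 in 18 pairs of arrays with the same number and at -0.409 to 0.105 in 36 pairs with different numbers, so the numbers were taken to pair the arrays. Deviations cancel out within a group, so the values for different numbers are partly fixed by those for the same number. The titles give only the numbers and do not say that arrays of the same number came from the same experiment. The main fit did not use the pairing. With the replicate block limma's adjusted p was 0.0823 and not 0.233 for Hoxa9 (1455626_at) with NA10 against the GFP control. For Hoxa7 with ND13 against the mutant it was 0.0887 and not 0.174. The settings tried besides were only probe sets with a mean above 140 (dim filter), 41.5 added before log2 (pseudocount), median centring and quantile normalisation. Further settings were eBayes without trend and without robust (plain eBayes), fits of only the groups compared, the methods' t-test (Welch, on log2 values) and the replicate block. The others were array weights, another background percentile (75), and each array or both arrays in doubt left out.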

Additional observations from a re-analysis of the deposited data

How the results depend on the processing

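Hoxa5, Hoxa7 and Hoxa9 (1455626_at) were higher by value in all settings run with ND13 and with NA10 against the GFP control and with both against both controls. The call was less steady. Of the 9 probe sets, 0 were called in each of the 7 comparisons. For NA10 against the GFP control array weights called 1 (Hoxa9), and for both active fusions against both controls the pseudocount called 1 (Hoxa7, adjusted p = 0.0488), quantile normalisation 1 (Hoxa9, 0.0456) and array weights 1 (Hoxa9, 0.0353), while leaving out single arrays gave 0 to 1. The Hoxa9 differences with quantile normalisation and array weights for both active fusions against both controls were 0.595 and 0.587, just over 1.5-fold. With the replicate block 0 were called in any comparison, and the block changed no call of a HoxA probe set.

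Counts at the unadjusted thresholds moved more. For ND13 against the GFP control the 2 became 1 with plain eBayes, 0 with the methods' t-test, 1 without both arrays in doubt and 0 to 2 when arrays were left out in turn. For ND13(N51S) against the GFP control the 2 became 1 with the dim filter, quantile normalisation, plain eBayes or only the groups compared, 0 with the pseudocount, the methods' t-test, array weights or without both arrays in doubt, and 0 to 2 when arrays were left out. With the methods' t-test the count was 1 for ND13 and 1 for NA10 against the mutant, where it had been 2 and 3, and 1 for ND13 against NA10, as in a fit of only the groups compared. For both active fusions against both controls array weights gave 4.

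Directions turned only where the difference was small or the signal dim. For Hoxa4 (1420226_x_at) with ND13 the 0.07 became -0.0047 with median centring, -0.073 with array weights and -0.085 to 0.36 without single arrays; for both active fusions the 0.06 became -0.075 with array weights, -0.064 without both arrays in doubt and -0.085 to 0.24 without single arrays, and the 0.29 of 1427354_at became -0.098 to 0.52. Hoxa11 with NA10 was -0.045 without both arrays in doubt, and -0.045 to 1.48 without single arrays. Hoxa9 (1421579_at) with the mutant became 0.0090 with quantile normalisation, 0.10 with array weights, 0.12 without both arrays in doubt and -0.15 to 0.22 without single arrays, and ND13 against NA10 became -0.036 with median centring and -0.069 to 0.12. Hoxa9 (1455626_at) with the mutant became -0.017 with median centring, -0.050 without both arrays in doubt and -0.052 to 0.19 without single arrays. Without single arrays Hoxa2 with ND13 ran from -0.68 to 0.25, Hoxa10 with ND13 from -0.47 to 0.17 and with both active fusions from -0.085 to 0.36, and Hoxa5 with the mutant from -0.88 to 0.37. The cause of these shifts was not tested. Signals near background limit what can be said of Hoxa2, Hoxa4 and Hoxa11.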
